A study of Homo sapiens with 56 samples.

Results

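The genes described here make, sense and move cholesterol and fatty acids. They were taken from a list of 37 symbols, and a gene was read where a probe set of the array is annotated with that symbol alone. This held for 34 of the 37, out of 19775 genes read in the same way. FDFT1, CYP51A1 and FADS1 were not analysed here as single genes. The 34 are 16 enzymes of the mevalonate and sterol pathway, 5 regulators, 4 genes of cholesterol transport and 9 enzymes of fatty acid synthesis, elongation and desaturation. ABCA1, a cholesterol exporter, had group means between 16.7 and 55.0 and was too close to background to be tested in any line.

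Cobomarsen (MRG-106) is an oligonucleotide designed to block miR-155, and the study added it to the medium of 4 cutaneous T-cell lymphoma lines, with untreated cells beside them. HuT102, MJ and MY-LA cells were harvested at day 4, the time at which the submitters looked for direct targets, and at day 8, the time for downstream targets, and HuT78 cells at day 8. There were 4 arrays in each of 14 groups, 56 arrays in total. At 96 hours all wells of a line were diluted by 1 factor, set by the count of the untreated wells, and fresh medium followed 48 hours later. The concentration of cobomarsen is not given in the sources used here, and the groups analysed hold no control oligonucleotide, so a general response to oligonucleotides cannot be told apart from inhibition of miR-155. HuT102 and MJ are known to carry the virus HTLV-1. The labels do not say whether the 4 arrays of a group came from separate cultures, so the p-values measure the spread between these arrays, which may be technical.

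Cells sense cholesterol in the membrane of the endoplasmic reticulum. When it is low, SCAP carries the precursors of the transcription factors SREBP-1 and SREBP-2 (encoded by SREBF1 and SREBF2) to the Golgi, where they are cut and released to activate genes of sterol and fatty acid synthesis, and when it is high the INSIG proteins hold SCAP back. SREBP-2 mainly drives the sterol pathway and SREBP-1 mainly fatty acid synthesis, while oxysterol-activated LXR receptors raise SREBF1 and the cholesterol exporters. Proliferating T cells depend on this synthesis for new membrane.

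The sequence that cobomarsen is directed against is shown first, from RefSeq (GRCh38.p14), with the seed, bases 2 to 8, in capitals. It lies at chr21:25573983-25574006 on the plus strand.

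hsa-miR-155-5p: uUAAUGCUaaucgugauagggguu

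Promoter windows of 300 bases, 250 before and 50 after the annotated start, were held by RefSeq for 32 of the 37 symbols. The letters of a sterol regulatory element, TCACNCCAC on either strand, were in 1 of these 32 windows (3.12%) and in 1.15% of all 27305 windows. That window is the one of SREBF2, shown because it is the gene of SREBP-2, at chr22:41832962-41832990 on the plus strand, with the element in capitals beginning 133 bases before the start.

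SREBF2 window: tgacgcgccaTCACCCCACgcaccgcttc

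The CCAAT box, the letters bound by NF-Y, a known partner of SREBPs at sterol genes, was in 19 of the 32 windows (59.4%) and in 35.7% of all windows, searched as CCAAT on both strands. The E-box CACGTG, the same on both strands, was in 6 of 32 (18.8%) and in 7.43% of all. The motifs were counted separately and no test was made of these shares. The windows of SCD, DHCR7 and MSMO1, which are among the genes with the largest falls below, are printed with CCAAT or its reverse complement ATTGG in capitals. They were chosen after the values were seen. SCD lies at chr10:100346983-100347282 on the plus strand, DHCR7 at chr11:71448344-71448643 on the minus strand and MSMO1 at chr4:165327419-165327718 on the plus strand.

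SCD promoter: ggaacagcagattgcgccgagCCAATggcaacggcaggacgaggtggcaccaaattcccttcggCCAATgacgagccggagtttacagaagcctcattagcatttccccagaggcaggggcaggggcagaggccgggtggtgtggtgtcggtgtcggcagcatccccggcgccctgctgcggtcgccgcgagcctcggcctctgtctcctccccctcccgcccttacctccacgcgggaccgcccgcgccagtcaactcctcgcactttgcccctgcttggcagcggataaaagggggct
DHCR7 promoter: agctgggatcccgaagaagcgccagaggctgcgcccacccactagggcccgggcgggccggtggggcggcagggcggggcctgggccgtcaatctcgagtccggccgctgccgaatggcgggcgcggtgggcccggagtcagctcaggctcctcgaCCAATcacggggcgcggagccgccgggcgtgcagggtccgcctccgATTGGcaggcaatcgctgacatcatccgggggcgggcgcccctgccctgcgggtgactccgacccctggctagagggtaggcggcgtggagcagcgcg
MSMO1 promoter: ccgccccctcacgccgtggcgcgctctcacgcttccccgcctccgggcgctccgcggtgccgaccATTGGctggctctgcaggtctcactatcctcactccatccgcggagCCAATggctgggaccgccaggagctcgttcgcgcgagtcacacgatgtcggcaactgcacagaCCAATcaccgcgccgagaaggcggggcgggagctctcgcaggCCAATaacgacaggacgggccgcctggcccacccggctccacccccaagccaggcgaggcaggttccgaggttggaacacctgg

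The values are the authors' MAS5 signals, in arbitrary units on a linear scale, and a gene with several probe sets is read by the brightest on average. Changes are differences of log2(signal + 16), cobomarsen minus untreated, given ± the standard error of limma's fit, which understates changes of genes with low signal. A gene was tested where its mean reached the median of all values, a signal of 74.0, and called at a limma adjusted p under 0.05 over all genes tested. In limma the spread of a gene is pooled over the 14 groups. T-cell markers were read in each line, and CD3D lay between 5914 and 17540 in the untreated day 8 cells of the 4 lines. CD7 was near background in HuT102, MJ and MY-LA (means between 12.4 and 22.2) and averaged 100.7 in HuT78. Among markers of other cells, CD79A (313 to 412) and HBB (120 to 264) were above 74.0 in all 4 lines. CD2 was near background in HuT78, and CD4 and CD5 were near background in MY-LA. The upper quartile of signals was higher with cobomarsen, without overlap of the arrays, in HuT102 at day 8 (449.1 against 423.1 in untreated cells), MJ at day 4 (436.8 against 417.3) and MJ at day 8 (449.5 against 430.8). The ratio of 3′ to 5′ GAPDH signal, a sign of RNA quality, was 0.930 in treated and 0.911 in untreated MJ cells at day 8, also without overlap. The part of either in the results below was not tested.

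Cobomarsen-treated HuT102 and MY-LA cells held less mRNA of most of these genes than untreated cells, and MJ cells did not. In HuT102, 19 of 32 tested genes were lower and 2 higher at day 4, where 13.1% of all genes tested were called lower and 10.1% higher (23.1% in either direction). At day 8, 25 of 32 were lower and 1 higher in HuT102, against 21.3% lower and 19.1% higher among all genes (40.3%). In MY-LA, 21 of 32 were lower and 0 higher at day 4 (12.9% and 13.4% of all genes), and 23 were lower and 2 higher at day 8 (18.4% and 23.6%, together 42%). In MJ, 2 of 33 were lower and 7 higher at day 4 (14.3% and 13.2% of all genes, together 27.4%), a share near the background, and 4 were lower and 10 higher at day 8 (18.7% and 15.3%, together 34%). Leaving out 1 MJ array gave 4 to 6 higher and 0 to 2 lower at day 4, with 4 higher without untreated replicate 4 and 0 lower without cobomarsen replicate 2 or untreated replicate 3. At day 8 it gave 8 to 10 higher and 1 to 4 lower, with 1 lower without cobomarsen replicate 2 and 2 lower without cobomarsen replicate 1 or untreated replicate 2 or 4. A fit to the 8 MJ arrays of day 8 alone called 15 of these genes higher, and 2417 of all 11923 genes.

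The median change of the tested genes was -0.35 at day 4 and -0.58 at day 8 in HuT102, and -0.32 and -0.46 in MY-LA. In MJ it was -0.01 at day 4 and 0.17 at day 8. Over all genes tested in the same comparisons the medians lay between -0.03 and 0.02. In HuT78 at day 8 it was -0.02, against -0.05 over all genes.

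**Figure D1:**
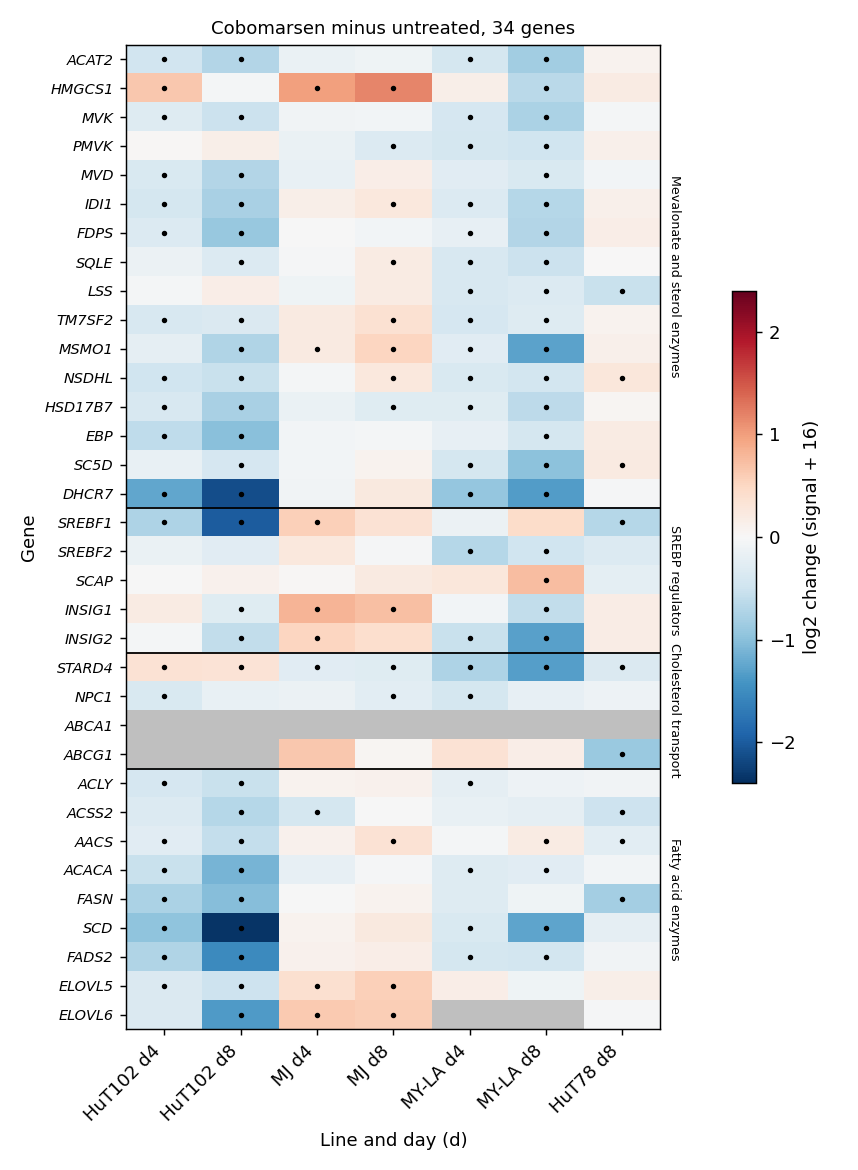
Change of each of the 34 genes (rows, grouped by role) in the 7 comparisons of cobomarsen with untreated cells (columns), as differences of log2(signal + 16); blue is lower and red higher with cobomarsen, dots mark genes called by limma and grey marks genes not tested. The HuT102 and MY-LA columns are mostly blue, with 25 and 23 genes called lower at day 8, and the MJ columns hold the called rises of HMGCS1, INSIG1, MSMO1, ELOVL5 and ELOVL6.

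Of the 31 genes tested in both HuT102 and MY-LA at day 8, 18 were lower in both (58.1%), which is 75% of the genes lower in HuT102 and 78.3% of those lower in MY-LA. Of the 31, 24 were lower in HuT102 and 23 in MY-LA, so this overlap is about what these counts alone would give. Among all 10139 genes tested in both, 591 were lower in both (5.83%), or 25.8% and 31.5% of the genes lower in each line. The 2 comparisons share no arrays. Of the 32 genes tested in both HuT102 and MJ at day 8, 9 were lower in HuT102 and higher in MJ (28.1%), against 1.89% of all genes tested in both. Of the 32, 25 were lower in HuT102 and 10 higher in MJ. Much of this overlap goes with these counts, and an excess over them was not tested. IDI1, INSIG1, MSMO1, NSDHL, SQLE and TM7SF2 were lower in HuT102 and MY-LA and higher in MJ at day 8. The NSDHL rise in MJ was lost without any of 3 single arrays. The 11 genes lower in both lines at both days were ACACA, ACAT2, DHCR7, FADS2, FDPS, HSD17B7, IDI1, MVK, NSDHL, SCD and TM7SF2. The second probe set of NSDHL gave 0.031 in MY-LA at day 4, not called.

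The enzymes of the mevalonate and sterol pathway fell in HuT102 and in MY-LA. Of the 16 measured, 10 were lower and 1 higher in HuT102 at day 4, and 13 were lower at day 8. In MY-LA 13 were lower at day 4, and all 16 tested were lower at day 8. In MJ 2 were higher at day 4, and 6 were higher and 2 lower at day 8. The 2 of 16 higher at day 4 are near the 13.2% of all genes called higher there, and the 2 lower at day 8 are below the 18.7% called lower.

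DHCR7, the enzyme of the last step to cholesterol from 7-dehydrocholesterol, fell furthest among them in both lines. Its signals in HuT102 at day 8 were 739, 546, 517 and 602 in cobomarsen-treated cells, against 2861, 2421, 2674 and 2724 in untreated cells. At day 4 they were 895, 922, 1070.0 and 1089 in cobomarsen-treated cells, against 2140.1, 2695, 2358 and 2374 in untreated cells. The arrays did not overlap at either day, and the changes were -1.25 ± 0.11 at day 4 and -2.13 ± 0.11 at day 8 (limma adjusted p = 1.14e-13 and 6.90e-23).

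DHCR7 fell in MY-LA as well. The MY-LA signals at day 8 were 1032, 1255, 1289.7 and 1060.3 in cobomarsen-treated cells, against 3111, 2825, 2783 and 3121 in untreated cells. The treated arrays lay below all untreated ones, with a change of -1.35 ± 0.11 (limma adjusted p = 3.57e-15), and at day 4 the change was -0.92 ± 0.11. MJ signals at day 8 were 2578, 2507, 2065 and 2725 in cobomarsen-treated cells, against 2051, 2152, 2342 and 1874 in untreated cells, which overlapped (change 0.23 ± 0.11, limma adjusted p = 0.0995). A second DHCR7 probe set changed by -1.93 in HuT102 and by -1.18 in MY-LA at day 8.

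MSMO1 encodes the methylsterol oxidase that removes the methyl groups at carbon 4 of the sterol ring, and it moved in opposite directions in MY-LA and MJ. Its signals in MY-LA at day 8 were 2966, 2651, 2999.8 and 2882 in cobomarsen-treated cells, against 6719.8, 6854, 6618 and 7894 in untreated cells. Those in MJ were 8340.0, 8258, 8898 and 8960.3 in cobomarsen-treated cells, against 5718, 6281, 6049.6 and 6018 in untreated cells. Neither pair of groups overlapped, with the treated MY-LA arrays all lower and the treated MJ arrays all higher. The changes were -1.28 ± 0.08 in MY-LA and 0.52 ± 0.08 in MJ (limma adjusted p = 3.11e-18 and 1.44e-06). In HuT102 MSMO1 was lower too at day 8, with a change of -0.72 ± 0.08 and no overlap of the arrays. The MJ rise at day 4, 0.21 ± 0.08, was lost without any of 6 single arrays, with changes from 0.17 to 0.23.

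HMGCS1, the synthase that makes HMG-CoA at the entry of the pathway, rose in MJ at both days. Its MJ signals at day 4 were 4426, 4949.9, 4679 and 4499 in cobomarsen-treated cells, against 2375, 2413, 2235 and 2314 in untreated cells. At day 8 the MJ signals were 5356, 5235, 5538 and 6046 in cobomarsen-treated cells, against 2963, 2103, 2377 and 2486 in untreated cells. Every treated MJ array lay above every untreated one at both days, with changes of 0.98 ± 0.09 and 1.16 ± 0.09 (limma adjusted p = 1.31e-13 and 2.20e-16). At day 8 it was the 1 member that rose by at least 2-fold in MJ.

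In HuT102 HMGCS1 was also higher at day 4, 3722, 4353, 3568 and 3299.7 in cobomarsen-treated cells, against 2595, 2541, 2097 and 2285 in untreated cells, with no overlap (change 0.65 ± 0.09, limma adjusted p = 4.72e-08). At day 8 the groups overlapped, with a change of -0.05 ± 0.09. It was lower in MY-LA at day 8, 733, 605, 705 and 668 in cobomarsen-treated cells, against 1053, 993, 1017 and 1194 in untreated cells, again with no overlap (change -0.64 ± 0.09, limma adjusted p = 1.92e-08). The probe sets of HMGCS1 disagree in HuT102: the second one changed by -0.031 at day 4 and by -1.57 at day 8, where it was called lower. Its rise in MJ at day 8 was 1.15 and was called. The HuT102 values of this gene are therefore uncertain.

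**Figure D2:**
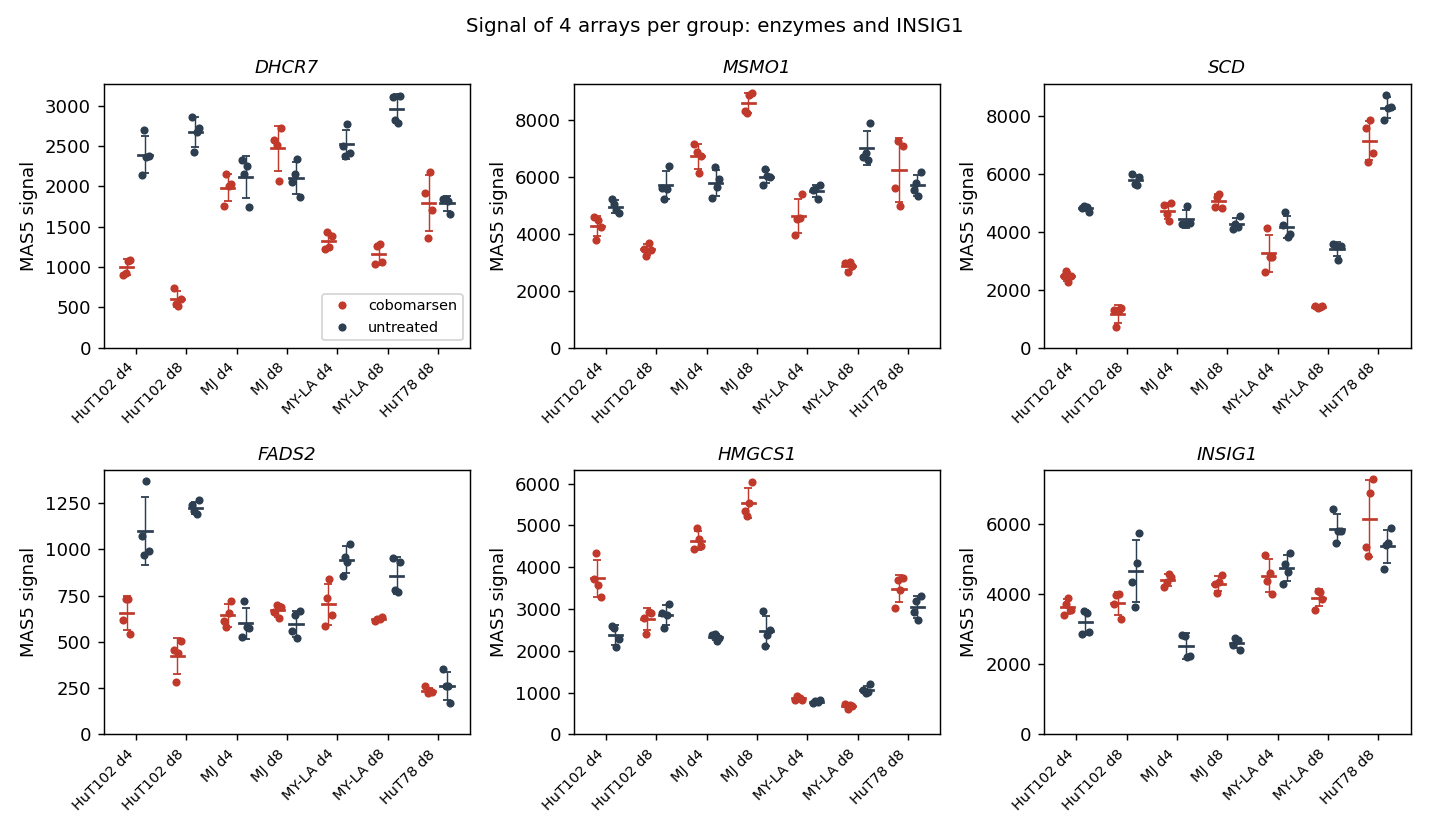
MAS5 signals (vertical axes, linear, arbitrary units) of DHCR7, MSMO1, SCD, FADS2, HMGCS1 and INSIG1 on every array, by line and day; points are arrays, red with cobomarsen and dark untreated, and bars show the mean and SD of 4 arrays. DHCR7 and SCD are lower with cobomarsen on all arrays of HuT102 and of MY-LA at day 8, and HMGCS1 and INSIG1 are higher on all treated MJ arrays.

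FDPS, which joins isoprene units to farnesyl diphosphate, averaged 4475 ± 438 in cobomarsen-treated cells and 8384 ± 775 in untreated cells of HuT102 at day 8 (SD, n = 4 each), a change of -0.90 ± 0.07 (limma adjusted p = 1.19e-15). The MY-LA change at day 8 was -0.69 ± 0.07. In MJ it was -0.06 ± 0.07 and was not called (limma adjusted p = 0.538). SQLE, the oxygenase that turns squalene into its epoxide, changed by -0.34 in HuT102, -0.52 in MY-LA and 0.20 in MJ at day 8, all 3 called and without overlap.

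EBP and SC5D, which shift and add double bonds in the sterol ring late in the pathway, fell by different amounts in these lines. EBP changed by -1.01 in HuT102 and by -0.42 in MY-LA at day 8. SC5D changed by -0.41 in HuT102 and by -0.99 in MY-LA. The difference between the lines, HuT102 minus MY-LA, was -0.59 ± 0.11 for EBP and 0.58 ± 0.11 for SC5D (limma adjusted p = 2.66e-05 and 1.93e-05). EBP thus fell more in HuT102, and SC5D more in MY-LA.

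At day 8 the changes of ACAT2, MVK and MVD, which act from acetoacetyl-CoA to isopentenyl diphosphate, lay between -0.71 and -0.52 in HuT102 and between -0.83 and -0.37 in MY-LA. The MVD call in MY-LA was lost without cobomarsen replicate 1 or untreated replicate 1 or 3, with changes from -0.35 to -0.26. IDI1, TM7SF2, NSDHL and HSD17B7 were lower in both lines at both days. HSD17B7 was also called lower in MJ at day 8, at -0.29, where IDI1, TM7SF2 and NSDHL were higher. In MY-LA at day 4 the call of HSD17B7 was lost without any of 3 single arrays, and that of FDPS without any of 5. IDI1 and HSD17B7 are read by probe sets that the array maker marks as able to cross-hybridise, so their values are uncertain. PMVK and LSS, the lanosterol synthase, were called lower in MY-LA at both days and were not called in HuT102, where PMVK changed by 0.14 ± 0.08 and LSS by 0.16 ± 0.09 at day 8. PMVK was also called lower in MJ at day 8, at -0.33. The number of members called lower there fell to 1 without cobomarsen replicate 2.

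Of the 5 regulators, 1 was lower at day 4 and 3 at day 8 in HuT102, and 2 at day 4 and 3 at day 8 in MY-LA, where 1 was higher at day 8. In MJ 3 were higher at day 4 and 1 at day 8, and none was lower. The 1 of 5 at day 8 is near the 15.3% of all genes called higher there. SREBF1, INSIG1 and INSIG2 carried most of these calls.

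SREBF1 fell in HuT102, and its day 8 effect there was more negative than in each of the other 3 lines. Its signals in HuT102 at day 8 were 297, 155, 271 and 361 in cobomarsen-treated cells, against 1127, 971, 1133 and 1121 in untreated cells. At day 4 they were 407, 393, 356 and 396 in cobomarsen-treated cells, against 647, 556, 604 and 886 in untreated cells. No treated array reached the lowest untreated one at either day, with changes of -0.75 ± 0.19 and -2.00 ± 0.19 (limma adjusted p = 0.00194 and 5.95e-13).

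SREBF1 signals in MY-LA at day 8 were 614, 883, 839.9 and 658 in cobomarsen-treated cells, against 565, 557, 580.0 and 473 in untreated cells. These groups did not overlap and the treated cells were on the higher side, but the change of 0.44 ± 0.19 was not called (limma adjusted p = 0.0543). The MY-LA arrays of day 8 alone called it (limma adjusted p = 0.0127). The difference between the lines, HuT102 minus MY-LA, was -2.44 ± 0.26 (limma adjusted p = 8.14e-11). In MJ the change was 0.57 ± 0.19 at day 4, called, and 0.34 ± 0.19 at day 8, not called, though the MJ arrays of day 8 alone called it (limma adjusted p = 0.0330). Without replicate 4 of either MJ group at day 4 that call was lost, with changes of 0.47 and 0.50.

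INSIG1 and INSIG2 encode the proteins that retain SCAP, and both are known to respond to sterols in their own ways. INSIG1 signals in MJ at day 8 were 4284, 4026, 4342 and 4547 in cobomarsen-treated cells, against 2563, 2746, 2681 and 2420.0 in untreated cells. Those in MY-LA were 3563, 4090.2, 4063 and 3872 in cobomarsen-treated cells, against 6440.4, 5455, 5801 and 5805 in untreated cells. Neither pair overlapped, and the changes were 0.72 ± 0.10 in MJ and -0.59 ± 0.10 in MY-LA (limma adjusted p = 8.64e-08 and 4.50e-06). In HuT102 the change at day 8 was -0.30 ± 0.10 with overlapping arrays. That call was lost without untreated replicate 3 or 4 or cobomarsen replicate 4, where the change was -0.26, -0.19 and -0.24.

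INSIG2 in MY-LA at day 8 had signals of 541, 649, 706 and 549.7 in cobomarsen-treated cells, against 1341, 1796, 1323 and 1716 in untreated cells. The treated arrays all lay below the untreated ones, and the change was -1.31 ± 0.17 (limma adjusted p = 6.02e-09). At day 4 the same line gave 1118, 2468, 1474 and 2413 in cobomarsen-treated cells, against 3703, 3103, 2041 and 1839 in untreated cells, with wide spread and overlap. The day 4 change of -0.53 ± 0.17 was called, and it was lost without any of 4 single arrays, with changes from -0.44 to -0.31. INSIG2 changed by -0.59 in HuT102 at day 8 and by 0.52 in MJ at day 4, both called.

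SCAP, the escort of the SREBPs, averaged 1469.8 ± 131 in cobomarsen-treated cells and 868 ± 89.1 in untreated cells of MY-LA at day 8 (SD, n = 4 each) and rose by 0.75 ± 0.12 (limma adjusted p = 6.48e-07), with no overlap. It was not called in the other 6 comparisons. SREBF2 was lower in MY-LA, with changes of -0.68 at day 4 and -0.48 at day 8. The second call was lost without cobomarsen replicate 1, at -0.34. In HuT102 the SREBF2 changes of -0.16 ± 0.14 and -0.27 ± 0.14 were not called.

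STARD4, a soluble carrier of cholesterol between membranes, moved in opposite directions in HuT102 and MY-LA. In HuT102 at day 8 its signals were 11325, 11373, 10924 and 10922 in cobomarsen-treated cells, against 9469.6, 7514, 8988 and 9735 in untreated cells. MY-LA signals at day 8 were 7092, 6778, 6182 and 6765 in cobomarsen-treated cells, against 16833, 15751, 17027 and 17122 in untreated cells. Treated HuT102 arrays were all higher and treated MY-LA arrays all lower than their untreated arrays. The changes were 0.33 ± 0.09 and -1.31 ± 0.09, and their difference, HuT102 minus MY-LA, was 1.64 ± 0.13 (limma adjusted p = 1.99e-15). In MJ it was lower at day 8, with a change of -0.29, a call lost without cobomarsen replicate 2, at -0.23.

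NPC1, which exports cholesterol from lysosomes, changed by -0.36 in HuT102 and by -0.43 in MY-LA at day 4, both called, and its day 8 changes there were -0.17 ± 0.10 and -0.20 ± 0.10, not called. In MJ at day 8 it was called lower, at -0.25, where the count of calls depended on single arrays as given above. Another of its probe sets gave 0.086 in HuT102 at day 4, not called. ABCG1, an LXR-driven exporter, was near background in HuT102 and was not called in MJ or MY-LA, with changes between 0.05 and 0.64.

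**Figure D3:**
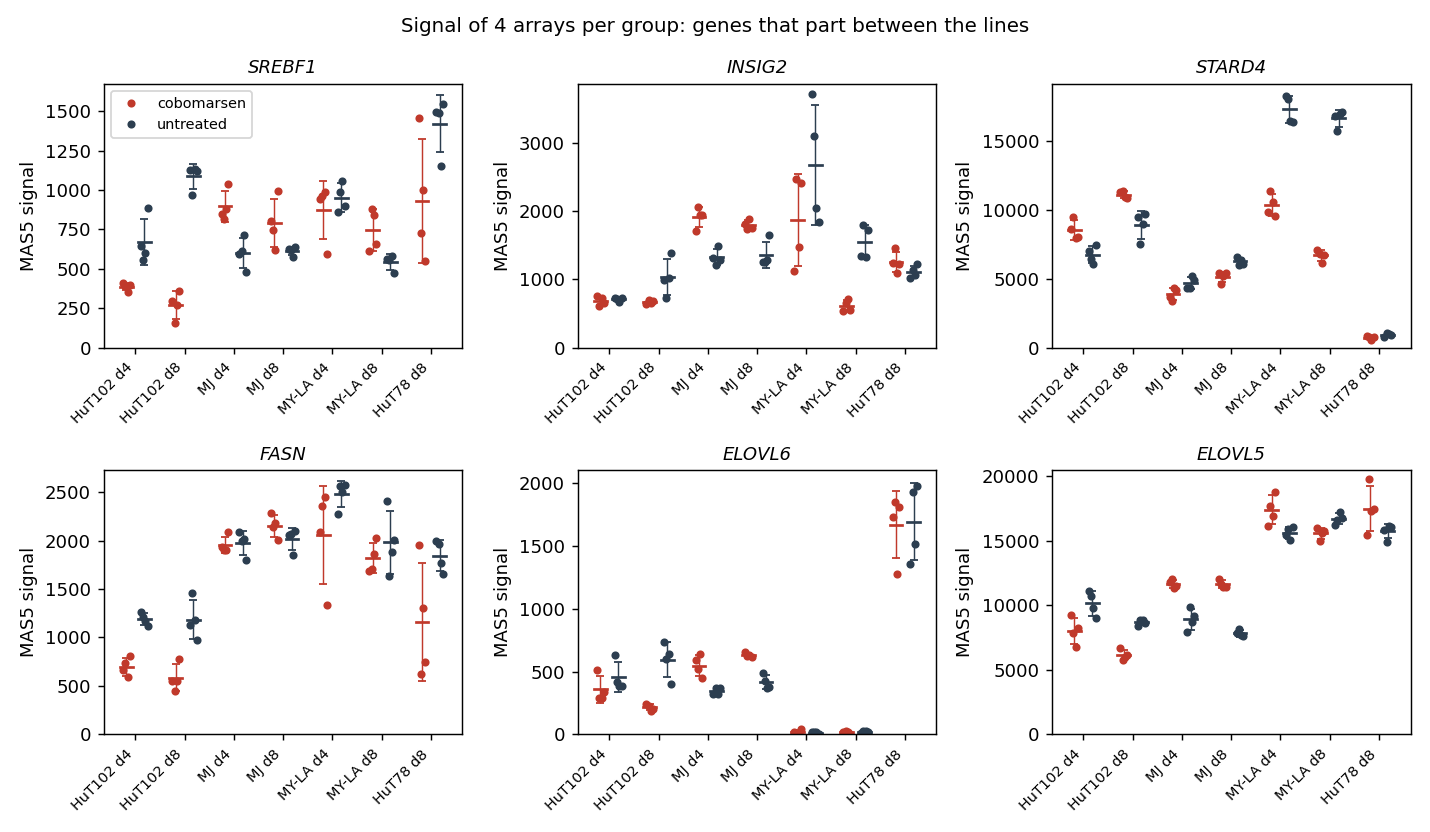
MAS5 signals (vertical axes, linear, arbitrary units) of SREBF1, INSIG2, STARD4, FASN, ELOVL6 and ELOVL5 on every array, by line and day; points are arrays, red with cobomarsen and dark untreated, and bars show the mean and SD of 4 arrays. STARD4 is higher with cobomarsen in HuT102 and lower in MY-LA, SREBF1 is lower in HuT102, and ELOVL5 is lower in HuT102 and higher in MJ.

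Most enzymes of fatty acid synthesis were called lower in HuT102, 7 of 9 at day 4 and all 9 tested at day 8, with a median change of -1.01 at day 8. In MY-LA 4 of 8 were lower at day 4, and 3 were lower and 1 higher at day 8, with a median of -0.16. In MJ 2 were higher and 1 lower at day 4, and 3 were higher at day 8. These 3 called genes of 9 at each day are near the 27.4% and 34% of all genes called there in either direction. ELOVL6 was near background in MY-LA, where all 16 signals lay at or below 46.2, and was not tested there.

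SCD, the desaturase that makes oleate from stearate, had the largest fall of the 34 genes. HuT102 signals at day 8 were 1306, 697, 1297 and 1362 in cobomarsen-treated cells, against 5996, 5657, 5628 and 5897 in untreated cells. At day 4 they were 2476, 2636, 2263 and 2476 in cobomarsen-treated cells, against 4840.5, 4882, 4846 and 4678 in untreated cells. Treated arrays lay below all untreated ones at both days, and the changes were -0.96 ± 0.11 and -2.35 ± 0.11 (limma adjusted p = 9.47e-10 and 4.96e-24). Treated replicate 2 at day 8, at 697.0, stood apart from the other 3.

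SCD signals in MY-LA at day 8 were 1424, 1385, 1395 and 1455 in cobomarsen-treated cells, against 3569, 3523, 3035 and 3509 in untreated cells, again without overlap, with a change of -1.26 ± 0.11 (limma adjusted p = 9.29e-14). The day 4 change was -0.37 ± 0.11, a call lost without cobomarsen replicate 1, at -0.27. MJ signals at day 8 were 4845, 5220.1, 5320.1 and 4844 in cobomarsen-treated cells, against 4096, 4263, 4173 and 4554 in untreated cells, where the treated arrays were all higher, but the change of 0.24 ± 0.11 was not called (limma adjusted p = 0.0831). The MJ arrays of day 8 alone called it (limma adjusted p = 0.00137). The other 3 SCD probe sets changed by -2.23, -3.32 and -3.48 in HuT102 at day 8, all called, and by -0.46, -0.46 and -0.67 in MY-LA, where 2 were called.

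FADS2, the delta-6 desaturase of polyunsaturated fatty acids, had HuT102 signals at day 8 of 459, 282, 439 and 506 in cobomarsen-treated cells, against 1238, 1208, 1189.6 and 1266 in untreated cells. MY-LA signals at that day were 611, 624, 625 and 637 in cobomarsen-treated cells, against 954, 781, 768 and 932 in untreated cells. The groups did not overlap in either line, and the changes were -1.53 ± 0.14 and -0.44 ± 0.14 (limma adjusted p = 2.94e-13 and 0.0086). HuT102 minus MY-LA was -1.09 ± 0.20 (limma adjusted p = 1.17e-05). A second FADS2 probe set gave -0.94 in HuT102 at day 8 and was not called. The MY-LA call at day 4 was lost without cobomarsen replicate 1 or 4 or untreated replicate 4, with changes from -0.39 to -0.35.

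FASN, the fatty acid synthase, and ACACA, the acetyl-CoA carboxylase that supplies it with malonyl-CoA, differed between the lines too. FASN signals in HuT102 at day 8 were 553, 445, 555 and 779 in cobomarsen-treated cells, against 1124, 1455, 1177 and 971 in untreated cells. Those in MY-LA were 1686, 1711, 1858 and 2027 in cobomarsen-treated cells, against 2409, 1631, 1887 and 2006 in untreated cells. The HuT102 groups did not overlap (change -1.01 ± 0.18, limma adjusted p = 6.13e-06), and the MY-LA groups did (change -0.11 ± 0.18, limma adjusted p = 0.654). HuT102 minus MY-LA was -0.90 ± 0.25 (limma adjusted p = 0.00349). ACACA changed by -1.11 in HuT102 and by -0.27 in MY-LA, where the call was lost without cobomarsen replicate 4, at -0.21.

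The elongases ELOVL5, which lengthens polyunsaturated chains, and ELOVL6, which lengthens saturated ones, fell in HuT102 and rose in MJ. ELOVL5 signals in HuT102 at day 8 were 6644, 5751, 5984 and 6177 in cobomarsen-treated cells, against 8374, 8876, 8865 and 8653 in untreated cells. MJ signals at that day were 12053, 11619.9, 11438 and 11392 in cobomarsen-treated cells, against 7871, 8161, 7656 and 7593 in untreated cells. Neither pair overlapped, with changes of -0.50 ± 0.07 in HuT102 and 0.57 ± 0.07 in MJ (limma adjusted p = 1.98e-08 and 1.02e-09). Its probe sets disagree in MJ: 1 of the others rose by 0.51 at day 8, called, while another changed by -0.29, not called.

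ELOVL6 averaged 216 ± 25.4 in cobomarsen-treated cells and 594 ± 139 in untreated cells of HuT102 at day 8 (SD, n = 4 each), a change of -1.37 ± 0.24 (limma adjusted p = 3.71e-06). In MJ it averaged 632 ± 16.8 in cobomarsen-treated cells and 415 ± 57.6 in untreated cells (change 0.60 ± 0.24, limma adjusted p = 0.0438). The MJ call was lost without any of 7 single arrays, with changes from 0.54 to 0.61. The second ELOVL6 probe set gave -0.27 in HuT102 and was not called.

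Among the enzymes that supply acetyl-CoA and acetoacetyl-CoA, ACLY, which cleaves citrate, changed by -0.54 in HuT102 at day 8, and its MY-LA change of -0.12 ± 0.09 was not called. ACSS2, which activates acetate, changed by -0.68 in HuT102, and AACS, which activates acetoacetate, by -0.57, all 3 called. AACS was higher by 0.35 in MJ and by 0.20 in MY-LA at day 8. The MY-LA call was lost without any of 4 single arrays, with changes from 0.14 to 0.20.

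**Figure D4:**
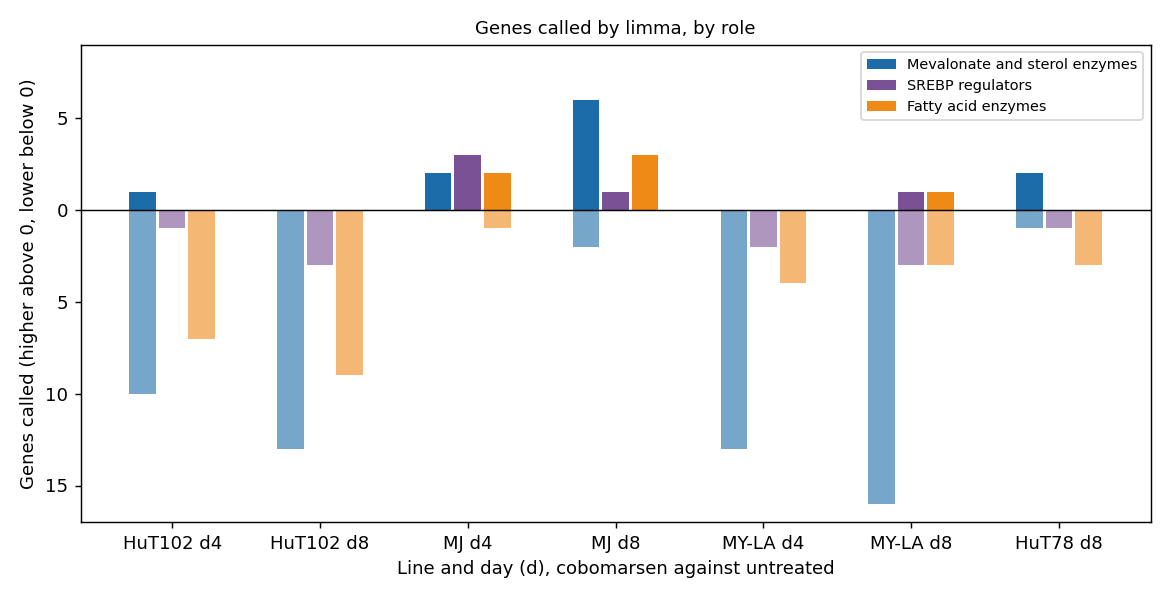
Number of genes called by limma in each comparison of cobomarsen with untreated cells (horizontal axis, line and day), for sterol enzymes, regulators and fatty acid enzymes, with genes called higher drawn upward and genes called lower drawn downward from 0. Sterol enzymes are called lower in HuT102 (13 at day 8) and MY-LA (16 at day 8), and fatty acid enzymes mostly in HuT102 (9 at day 8, against 3 in MY-LA).

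In HuT102 and MY-LA the effect of cobomarsen was more negative at day 8 than at day 4 for some of the genes. In HuT102 the day 8 effect was more negative for 12 of 32 genes and more positive for 0, against 3.97% and 3.21% of all genes tested (7.18% in all). SCD had the largest such difference, -1.38 ± 0.16, followed by SREBF1 with -1.25 ± 0.26 (limma adjusted p = 4.70e-09 and 0.000966). In MY-LA it was more negative for 12 of 32 and more positive for SCAP, against 7.47% and 9.61% of all genes. MSMO1 led there with -1.02 ± 0.12 (limma adjusted p = 1.84e-08). In MJ limma called 0 of 33 genes and 1.38% of all genes (0.991% more negative, 0.386% more positive). At an unadjusted p under 0.05 in limma there were 6 of the 33, and 1082 of all 11906 genes.

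Untreated cells also changed between the days, and this entered the differences just given. In MY-LA untreated cells 9 of 32 genes were higher at day 8 than at day 4 (6.61% of all genes) and 3 were lower (6.46%). All but INSIG1 of the 9 were sterol enzymes, and MSMO1 was among them at 0.34 ± 0.08 and SQLE at 0.37 ± 0.06. SREBF1, SREBF2 and INSIG2 were the 3 that were lower, SREBF1 with a change of -0.79. In HuT102 5 of 32 were higher at day 8 (4.59% of all genes) and 1, ELOVL5, was lower (4.13%). Of these SREBF1 rose by 0.70 and INSIG1 by 0.53. In MJ STARD4 was higher by 0.42 and no other member was called (1.19% of all genes were higher).

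The responses of the lines were compared directly as differences of their effects. HuT102 minus MJ was called for 28 of 32 genes at day 8, 26 of them lower in HuT102, where 14% of all genes were lower and 14.2% higher. At day 4 it was called for 17, of which 16 were lower and STARD4 higher (6.62% and 5.91% of all genes). MY-LA minus MJ was called for 22 of 33 at day 8, 21 of them lower (14.4%), and for 13 at day 4, all lower (7.79% lower and 9.26% higher among all genes).

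HuT102 minus MY-LA was called for 19 genes at day 8, 12 lower and 7 higher, against 21.7% and 17.4% of all genes, and for 6 at day 4, 3 lower and 3 higher, against 9.59% and 6.94%. Of the 12 with the more negative effect in HuT102, 8 were the fatty acid enzymes AACS, ACACA, ACLY, ELOVL5, ELOVL6, FADS2, FASN and SCD, and the other 4 were SREBF1, SCAP, EBP and DHCR7. ELOVL6 was near background in MY-LA, so its difference is uncertain. The 7 with the more negative effect in MY-LA were HMGCS1, LSS, MSMO1, PMVK and SC5D of the sterol pathway, with INSIG2 and STARD4. The probe sets of HMGCS1 disagree in HuT102 at day 8, so the direction of its difference is uncertain too. The numbers in the array titles fall into 2 series, HuT102 with MJ and HuT78 with MY-LA. Treated and untreated arrays of a line share a series, so each effect was measured within one. A difference of HuT102 or MJ from HuT78 or MY-LA crosses the series, and line and series cannot be told apart there.

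**Figure D5:**
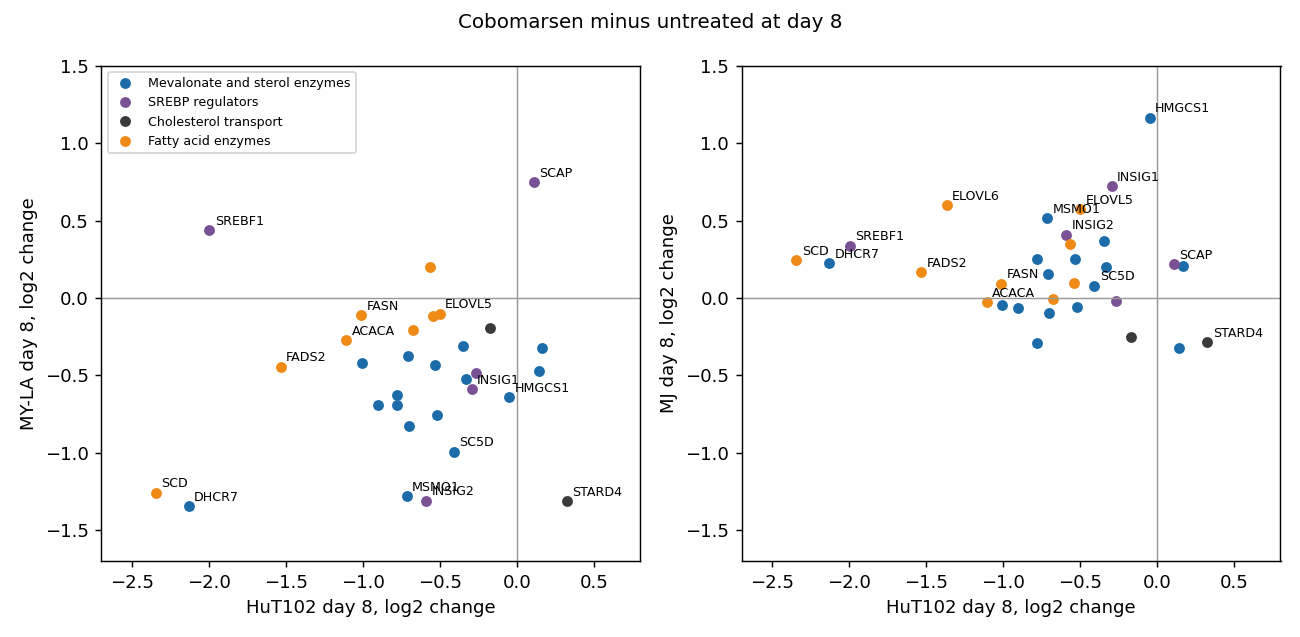
Day 8 changes, cobomarsen minus untreated, as differences of log2(signal + 16), of MY-LA (left, vertical axis) and MJ (right, vertical axis) against HuT102 (horizontal axes), 1 point per tested gene, coloured by role. Most points lie in the lower left of the left panel and to the upper left in the right panel, with STARD4 and SREBF1 apart on the left; the lines share no arrays.

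In HuT78 at day 8, 9 of 33 genes were called, a share near the 22% of all genes tested. Of these genes 7 were lower and 2 higher, against 11.3% and 10.6% of all genes. The 7 were AACS, ABCG1, ACSS2, FASN, LSS, SREBF1 and STARD4, and the 2 were NSDHL and SC5D. The calls of AACS, ACSS2, NSDHL, SC5D, SREBF1 and STARD4 were each lost without 1 single array, SREBF1 without cobomarsen replicate 4, at -0.46. DHCR7 signals were 1916, 1354, 2177 and 1705 in cobomarsen-treated cells, against 1838, 1838, 1819.9 and 1655 in untreated cells. The groups overlapped, with a change of -0.02 ± 0.11, and SCD changed by -0.22 ± 0.11 (limma adjusted p = 0.925 and 0.157).

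The treated HuT78 arrays differed among themselves. FASN signals were 1959, 619.6, 1301 and 749 in cobomarsen-treated cells, against 1995, 1963, 1769 and 1654 in untreated cells. SREBF1 signals were 1455, 729, 998 and 547 in cobomarsen-treated cells, against 1499, 1488, 1153 and 1549 in untreated cells. Treated replicate 1 lay among the untreated arrays for both genes and replicates 2 and 4 lay lowest. The upper quartile of signals was 431.3 on treated replicate 1 and between 380.2 and 384.7 on the other 3, against 421.6 to 443.4 on untreated arrays, and its part was not tested. In a fit to the 8 HuT78 arrays alone, limma called 0 of these genes and 1 of 10959 genes, with 9 members and 2571 genes at an unadjusted p under 0.05.

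The day 8 effect in the other lines was then set against that in HuT78. HuT102 minus HuT78 was called for 25 of 33 genes, 23 of them lower, against 37.2% of all genes called and 18.3% lower. MY-LA minus HuT78 was called for 24, 19 of them lower, against 38.9% and 16.5%. MJ minus HuT78 was called for 12 of 33, a share near the 35.7% of all genes, with 11 higher and 1 lower, against 17.5% and 18.2%. These comparisons share the HuT78 arrays. Over the 4 lines at once, limma's F-test of the day 8 effect called 31 of 33 genes, all but NPC1 and SREBF2, against 64.8% of all genes.

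In untreated day 8 cells limma's F-test called all 33 tested and 91.1% of all genes, so nothing is read from the count. STARD4 ranged from a mean of 939.1 in HuT78 to 16683 in MY-LA, and ELOVL6 from 20.8 in MY-LA, which is near background, to 1694 in HuT78. DHCR7 and MSMO1 differed by 1.66-fold and 1.23-fold between the highest and the lowest line. HuT78 held the highest mean for 11 genes and the lowest for 15.

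Further genes of the same pathways, 47 with a probe set out of 53 listed, were called in both directions. In HuT102 at day 8, 11 of 41 tested were lower and 7 higher, against 21.3% and 19.1% of all genes. In MY-LA 9 of 38 were lower and 10 higher, against 18.4% and 23.6%. In these lines the shares were near those of all genes, and nothing is read from the counts. In MJ 4 of 41 were lower and 9 higher at day 8, against 18.7% and 15.3% of all genes. In HuT78 8 of 39 were lower and 5 higher, against 11.3% and 10.6%.

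The changes of the tested further genes ran from -2.17 to 1.10 in HuT102 and from -1.15 to 1.09 in MY-LA at day 8. The genes at the 2 ends of the HuT102 range are not among the ones named here. MYLIP, the ubiquitin ligase that marks lipoprotein receptors for degradation and a target of LXR, averaged 4309.9 ± 475 in cobomarsen-treated cells and 2452 ± 167 in untreated cells of HuT102 at day 8 (SD, n = 4 each). It rose by 0.81 ± 0.09 in HuT102 and by 0.71 ± 0.09 in MY-LA and fell by 0.64 in MJ (limma adjusted p = 1.99e-10, 6.86e-09 and 9.10e-08). NR1H3, the gene of LXR-alpha, rose by 0.74 in MJ at day 4 and by 0.49 in HuT102 and 0.44 in MY-LA at day 8. MID1IP1, an activator of acetyl-CoA carboxylase, changed by -0.65 in HuT102 and by -0.72 in MY-LA at day 8. LIPA, the lysosomal acid lipase that frees cholesterol from its esters, fell by 0.89 in MY-LA and rose by 0.57 in HuT102. ACSL1, which activates long-chain fatty acids, rose by 1.01 in HuT102, and ACSL4, which prefers polyunsaturated ones, fell by 1.15 in MY-LA. All of the changes given for named genes were called by limma at day 8, except the MJ value of NR1H3, which is from day 4.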

How the data were processed

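Total RNA was labelled with biotin and hybridised to Affymetrix arrays. The authors deposited MAS5 intensity values (signals), named so in the submitters' processing notes, and they are linear. The mean of each array after trimming 2% at each end was 500.1, so all had been scaled to a common level. Of 54675 probe sets, 41091 had 1 gene symbol, while 1801 with more than 1 symbol and 11721 without any were not tested. For each gene the probe set with the highest mean was used and analysed as log2(signal + 16). A single limma model of group means (version 3.58.1, R 4.3.3) was used, with an intensity trend (42 residual degrees of freedom, median prior degrees of freedom 8.42), with Benjamini-Hochberg adjustment over all genes tested. Tests were two-sided. Groups were taken from the labels. Further steps used Python 3.11.15 with NumPy 2.4.6, pandas 2.3.3 and Matplotlib 3.10.9. The steps were tested on simulated data. The members, the lists and the naming rule (all members, and of the further genes up to 4 called ones with the largest change per comparison) were chosen with earlier results of these data known; which of these to describe was chosen after their values were seen. Precision is limited by the number of arrays.

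Alternatives were other added values (1 and 64), dropping the filter, filtering at the 75th percentile instead of the median, quantile normalization, the second probe set of a gene, no intensity trend, only the arrays compared, and leaving out each array in turn. The promoter windows to print were to be those holding TCACNCCAC, which no eligible gene had, so they were chosen by CCAAT after the values were seen.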

Additional observations from a re-analysis of the deposited data

Results flagged for a closer look

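In 12 genes, groups of 4 arrays were searched for an array far from the other 3 by Dixon's 95% criterion, which chance alone gives in about 1 of 20 groups. Of 168 sets of gene and group, 11 had one. SCD was lowest at 697.0 on 1 cobomarsen array of HuT102 at day 8, highest at 4899 on 1 untreated array of MJ at day 4 and lowest at 3035 on 1 untreated array of MY-LA at day 8. SREBF1 was lowest at 595.4 on 1 cobomarsen array of MY-LA at day 4, at 970.5 on 1 untreated array of HuT102 at day 8 and at 1153 on 1 untreated array of HuT78. DHCR7 was lowest at 1655 on 1 untreated HuT78 array, and INSIG2 highest at 1642 on 1 untreated array of MJ at day 8. FASN was highest at 2085 on 1 cobomarsen array of MJ at day 4, EBP at 4773 on 1 cobomarsen array of MY-LA at day 8 and ELOVL6 at 631.9 on 1 untreated array of HuT102 at day 4.

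The effect of cobomarsen differed between days for 12 genes in HuT102 and 13 in MY-LA. Between lines it differed at day 4 for 17 genes (HuT102 and MJ), 13 (MY-LA and MJ) and 6 (HuT102 and MY-LA). At day 8 it differed for 28, 22 and 19 genes in the same order, and for 25, 12 and 24 genes between HuT78 and HuT102, MJ and MY-LA. Over the 4 lines it differed for 31 of 33 genes. Each is limma's test of the difference itself, and the background of each is given with the comparison.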

How the results depend on the processing

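No paired analysis was possible because the labels give the arrays of different groups no shared replicate numbers. Of 125 called pairs of gene and comparison, the call was lost in 6 with 1 added before the logarithm, 10 without a filter and 8 after quantile normalization. It was lost in 6 without the trend, 18 with only the arrays compared and 0 with 64 added. The direction was kept in all of these. The stricter filter left 117 of the pairs tested, of which 0 lost the call, and the other pairs were no longer tested. With the second probe set, 22 of 112 pairs lost the call and 5 turned: ELOVL5 in MJ at day 4 (-0.43) and day 8 (-0.29), HMGCS1 (-0.031) and NPC1 (0.086) in HuT102 at day 4, and NSDHL in MY-LA at day 4 (0.031). A gene with only 1 probe set kept it in this setting, so its pairs could not turn. The 112 pairs thus hold fewer real checks by a second probe set. The medians and counts given below for this setting include such genes too. Leaving out 1 array lost the call in 99 of 1000 fits and turned none.

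The median change in HuT102 at day 8 became -0.54 with the stricter filter, -0.56 with 64 added or without a filter, -0.60 after quantile normalization and -0.69 with the second probe set. With the second probe set it was -0.28 in HuT102 at day 4, 0.056 and 0.22 in MJ at days 4 and 8 and -0.55 in MY-LA at day 8, and MJ at day 8 gave 0.20 with the stricter filter. Leaving out 1 array gave -0.64 to -0.55 in HuT102 at day 8, -0.019 to 0.016 in MJ at day 4 and 0.15 to 0.20 in MJ at day 8.

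With only the arrays compared, HuT78 had 0 genes lower and 0 higher, MJ at day 4 had 1 lower, MJ at day 8 had 15 higher and 5 lower, the MJ day difference had 1, and untreated cells had 0 lower with time in HuT102 and 5 in MY-LA. Over all genes these fits called 1 of 10959 in HuT78 and 1944 of 11961 lower in MJ at day 4. At day 8 in MJ they called 2417 higher and 2957 lower of 11923. The MJ day difference had 437 of 11906, and 556 of 11508 and 717 of 11018 were lower with time in untreated HuT102 and MY-LA. With the second probe set the counts were 12 lower in HuT102 at day 4, 2 higher in MJ at day 4, 1 higher in MY-LA at day 4, 3 lower and 1 higher in HuT78 and 0 lower with time in untreated HuT102. HuT102 minus MJ at day 4 was then 11, HuT102 minus MY-LA 3 at day 4 and 11 at day 8, and MJ minus HuT78 6. Over all genes the counts with second probe sets were, in the same order, 1004 of 9823, 1146 of 10139, 1020 of 9421, 724 and 702 of 9342, and 356 of 9777. For the differences between lines they were 944 of 10017, 1393 of 9759, 3330 of 9675 and 2812 of 9776. Quantile normalization gave 3 higher in HuT102 at day 8 and 1 higher in MY-LA at day 4 and at day 8. Over all genes it gave 2156 of 11439, 1560 of 11354 and 2429 of 11347 higher in these comparisons. Without a filter there were 1 higher in HuT78 and in MY-LA at day 8, 2 lower in MJ at day 8, and 3 higher and 0 lower with time in untreated HuT102. Of all 19775 genes, 991, 2428, 2111, 479 and 403 were called in that order. Without the trend there were 1 higher in HuT78, 2 lower in MJ at day 8 and 0 lower with time in untreated HuT102, and the stricter filter gave 1 lower in MJ at day 4. Over all genes these counts were 1021 of 10959, 2133 of 11923, 403 of 11508 and 1579 of 7718. Leaving out 1 array gave 0 to 7 higher in HuT78 (7 without cobomarsen replicate 1), 4 to 6 higher and 0 to 2 lower in MJ at day 4, 1 to 4 lower in MJ at day 8, 0 to 1 higher in MY-LA at day 4, 1 to 3 higher in MY-LA at day 8, and 3 to 8 higher and 0 to 1 lower with time in untreated HuT102 (8 without day 8 replicate 2). The cause of these moves in count was not tested in any setting. All alternatives were chosen with earlier results known.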

Other observations

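Probe sets that the annotation gives to a pair of symbols were kept out of the tests, and their values are given here without one. Those annotated to LRRD1 and CYP51A1, of which CYP51A1 is the lanosterol demethylase, averaged 1251 ± 81.1 and 2074 ± 349 in cobomarsen-treated HuT102 cells at day 8, against 2386 ± 121 and 5120 ± 944 in untreated cells (SD, n = 4 each, 2 probe sets). In MY-LA at day 8 they averaged 895.7 ± 131 and 2439 ± 76.2 in treated cells, against 1484 ± 161 and 3940 ± 174 in untreated cells. In MJ at day 8 they averaged 3879 ± 247 and 6948 ± 267 in treated cells, against 3036 ± 206 and 6637 ± 438 in untreated cells. Which of the 2 genes gave the signal cannot be told apart.

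The first of 3 probe sets annotated to MIR1908 and FADS1, of which FADS1 is the delta-5 desaturase, averaged 1383 ± 111 in treated HuT102 cells at day 8 and 3525 ± 111 in untreated cells. In MY-LA at day 8 it averaged 1353 ± 76.5 in treated cells and 2002 ± 144 in untreated cells. In MJ at day 8 the averages were 2212 ± 76.5 in treated cells and 2383 ± 64.1 in untreated cells, and in HuT78 1657 ± 199 in treated cells and 1764 ± 38.5 in untreated cells. For this probe set no treated array reached the lowest untreated one in HuT102 or MY-LA at day 8.

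The other 2 probe sets averaged 850.8 ± 155 and 1854 ± 263 in treated HuT102 cells at day 8, against 1897 ± 241 and 3813 ± 284 in untreated cells. In MY-LA at day 8 they averaged 667.4 ± 95.4 and 1519.7 ± 100.4 in treated cells, against 906.7 ± 214 and 2355 ± 132 in untreated cells, and the arrays of the first of these overlapped. In MJ at day 8 they averaged 1032 ± 77.5 and 2255 ± 281 in treated cells, against 951.1 ± 203 and 2370 ± 94.8 in untreated cells. In HuT78 they averaged 986.8 ± 83.7 and 2034 ± 209 in treated cells, against 926.6 ± 99.4 and 1959.6 ± 162 in untreated cells, so both means were on the higher side there.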
